A study of Homo sapiens with 11 samples.

Results

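The MTA2 list held 13462 peaks in SKNMC cells (also written SK-N-MC), an established line derived from a human Ewing sarcoma. The EWSR1::FLI1 fusion is present in this line. These peaks are all that the authors deposited for MTA2 by chromatin immunoprecipitation followed by sequencing (ChIP-seq), out of 134925 peaks in 9 lists. Every peak of the list is included, so no measured value beyond the authors' own peak calling decided which regions are described. The labels give 11 samples of wildtype SKNMC cells with no treatment, although the title of the CHD4 sample names a Flag tag. There was 1 sample each for MTA2 (antibody to MTA2/PID), CHD4 (pulled down with a Flag antibody), HDAC2, RBBP4, FLI1, H3K27ac, H3K4me1, H3K4me3 and H3K27me3, and 2 were input libraries, not analysed here. The CHD4 sample is titled FlagCHD4, so its list comes from a tag and not from an antibody to CHD4 itself. Any effect of the tag on the CHD4 overlaps was not tested. Cells were fixed with a protein cross-linker and then formaldehyde, and chromatin was sonicated. The other 8 lists hold 13288 CHD4, 20633 HDAC2, 13725 RBBP4, 1561 FLI1, 21500 H3K27ac, 31247 H3K4me1, 16089 H3K4me3 and 3420 H3K27me3 peaks, and serve here only to annotate the MTA2 regions.

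MTA2 is a scaffold subunit of the nucleosome remodelling and deacetylase complex (NuRD). MTA proteins bind the histone deacetylases HDAC1 and HDAC2 and the histone-binding proteins RBBP4 and RBBP7, and this core joins CHD4, the ATPase that moves nucleosomes, through MBD and GATAD2 subunits. NuRD is found at promoters and enhancers, and in Ewing sarcoma it is studied as a partner of EWSR1::FLI1, a fusion factor that binds GGAA repeats. H3K4me3 marks active and poised promoters, H3K4me1 marks enhancers and promoter flanks, H3K27ac marks active elements, and H3K27me3 marks Polycomb-repressed chromatin.

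Each target had 1 sample, so no test over samples was possible. Intervals of shares are 95% Wilson intervals over the peaks, promoter windows or genes counted. Intervals of medians are 95% intervals taken from the ranked values by the binomial distribution. Both cover counting error only and say nothing about the spread between cultures. The files give no read counts, so the depth is unknown. Peak height is the fold enrichment at the summit over the local background, a ratio that the authors' peak caller computed, and it ranks peaks only within a list.

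Of the 100 highest MTA2 peaks, 71 lay within 1 kb of a gene start. The sequences shown are the 250 bases before the gene start for the first 6 genes, in order of fold enrichment among peaks within 1 kb of a gene end, whose promoter window the MTA2 peak overlapped, read 5′ to 3′ on the strand of the gene (RefSeq, GRCh38). They come from chrX:149938492-149938741 (minus strand) for EOLA2, chr20:63894876-63895125 (plus) for DNAJC5, chr17:16381040-16381289 (plus) for UBB, chr17:76453153-76453402 (minus) for UBE2O, chr19:18831709-18831958 (plus) for UPF1 and chr1:1891088-1891337 (minus) for GNB1. Capitals mark the 6 letters CGCACG or their complement CGTGCG, whose frequency under MTA2 peaks is described further on.
EOLA2: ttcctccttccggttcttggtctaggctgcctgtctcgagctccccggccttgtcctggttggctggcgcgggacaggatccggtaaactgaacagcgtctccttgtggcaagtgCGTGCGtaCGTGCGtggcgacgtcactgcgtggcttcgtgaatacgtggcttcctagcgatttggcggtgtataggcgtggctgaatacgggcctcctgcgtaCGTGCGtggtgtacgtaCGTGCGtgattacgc
DNAJC5: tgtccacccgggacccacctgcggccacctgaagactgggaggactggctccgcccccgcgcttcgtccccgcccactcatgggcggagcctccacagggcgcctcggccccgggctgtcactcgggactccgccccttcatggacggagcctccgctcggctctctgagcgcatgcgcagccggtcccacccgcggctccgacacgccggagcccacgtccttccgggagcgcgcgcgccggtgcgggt
UBB: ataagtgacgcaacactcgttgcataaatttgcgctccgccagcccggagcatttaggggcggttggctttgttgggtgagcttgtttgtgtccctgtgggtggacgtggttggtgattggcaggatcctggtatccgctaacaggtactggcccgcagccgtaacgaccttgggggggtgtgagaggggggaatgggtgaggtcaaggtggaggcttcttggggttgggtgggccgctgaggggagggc
UBE2O: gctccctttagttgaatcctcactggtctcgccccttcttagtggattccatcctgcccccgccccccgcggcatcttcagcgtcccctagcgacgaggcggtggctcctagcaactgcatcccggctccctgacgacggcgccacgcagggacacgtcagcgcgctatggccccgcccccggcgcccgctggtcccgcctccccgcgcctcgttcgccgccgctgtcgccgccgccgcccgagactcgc
UPF1: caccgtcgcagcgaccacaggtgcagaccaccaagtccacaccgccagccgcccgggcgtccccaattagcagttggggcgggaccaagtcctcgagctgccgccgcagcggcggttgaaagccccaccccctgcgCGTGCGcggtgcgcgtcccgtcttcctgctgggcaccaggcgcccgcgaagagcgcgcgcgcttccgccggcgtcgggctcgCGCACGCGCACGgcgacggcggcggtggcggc
GNB1: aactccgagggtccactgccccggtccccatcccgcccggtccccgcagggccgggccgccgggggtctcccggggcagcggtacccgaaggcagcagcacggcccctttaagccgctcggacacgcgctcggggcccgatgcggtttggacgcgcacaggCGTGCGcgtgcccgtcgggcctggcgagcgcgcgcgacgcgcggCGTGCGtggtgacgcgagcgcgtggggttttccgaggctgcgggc

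EOLA2 held 4 matches, UPF1 held 3 and GNB1 held 2, while DNAJC5, UBB and UBE2O held 0 in these 250 bases. DNAJC5 had 1 match in the 50 bases after its start. The MTA2 summit lay 83 bp before the start of EOLA2, 39 bp before that of DNAJC5, 77 bp before that of UBE2O, 53 bp before that of UPF1 and 67 bp before that of GNB1. At UBB, a polyubiquitin gene, the summit lay 289 bp before the start, outside the bases shown. The nearest match was 41.5 bp from the summit at EOLA2, 42.5 bp at DNAJC5, 23.5 bp at UPF1 and 19.5 bp at GNB1.

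Fold enrichment in the MTA2 list ran between 2.22 and 35.7, with a median of 6.64 and quartiles of 5.43 and 8.22. The −log10 p of the peaks ran between 9.08 and 136, with a median of 17.9. Peaks were narrow, with a median width of 335 bp (quartiles 251 and 468 bp), and together covered 5.34 Mb. Higher peaks were wider, with a Spearman rho of 0.35 across the 13462 peaks. Only 196 peaks reached a fold enrichment of 15, and 34 of these reached 20. The highest value in the list, 35.7, stood beside 13.7 for CHD4, 19.5 for HDAC2 and 15.7 for RBBP4 in their own lists. These lists come from separate libraries called at separate settings, so the maxima are given side by side and not compared.

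Most MTA2 peaks lay away from gene ends. Of the 13462 peaks, 3819 (28.4%, interval 27.6 to 29.1%) were within 1 kb of either end of a protein-coding gene, and 9643 (71.6%) were farther away. The latter, called distal here, were divided almost evenly between gene bodies (36.2% of all peaks) and the space between genes (35.4%). The median distal peak was 36.2 kb from the nearest gene end (quartiles 10.8 and 110 kb), and 19.3% of all peaks were over 100 kb away. Median fold enrichment was 6.47 near gene ends (interval of the median 6.38 to 6.56) and 6.71 away from them (6.66 to 6.75). The median −log10 p went the other way, at 18.2 near gene ends and 17.8 away from them.

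At promoters the MTA2 summit sat just before the gene start. A table of gene starts covered 15843 of the 20037 protein-coding genes, and 25.3% of MTA2 peaks were within 1 kb of such a start. Of the peaks near gene ends 891 were not within 1 kb of a listed start, and 480 of the distal peaks were. Near a gene end is therefore not the same as at a promoter. Among the 3343 summits within 1 kb of a start, the median position was 86 bp upstream, at -86 bp (quartiles -170 and -11 bp). In all, 78.0% of these summits lay upstream and 64.3% fell in the 250 bases before the start. The same measure gave a median of -112.5 bp for 1842 CHD4 summits, -42 bp for 3919 RBBP4 summits, 42 bp for 6988 HDAC2 summits and 235 bp for 10432 H3K4me3 summits. The share within the 250 bases before the start was 36.9% for CHD4, 43.6% for RBBP4, 25.2% for HDAC2 and 4.95% for H3K4me3.

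**Figure D1:**
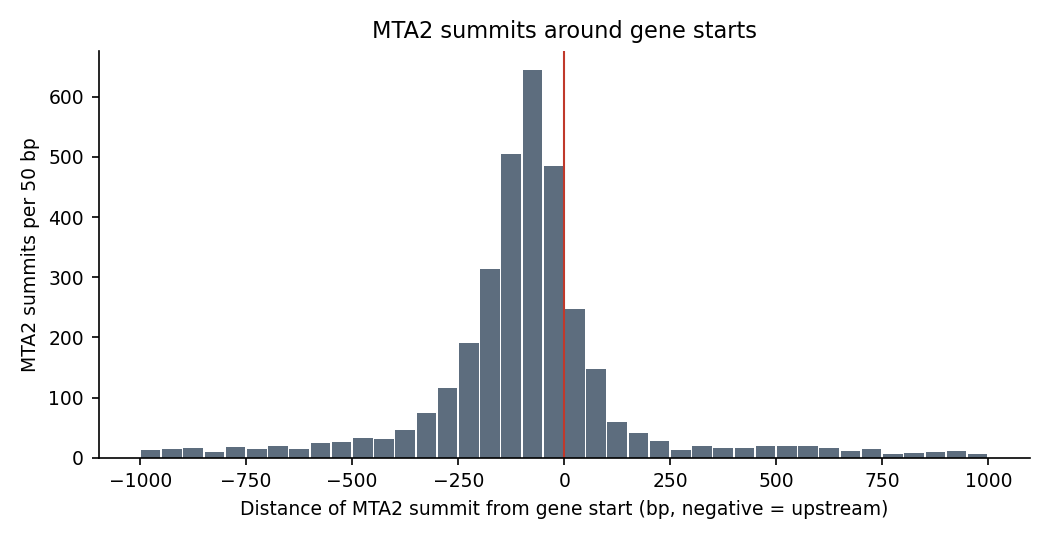
Number of MTA2 peak summits in bins of 50 bp (y axis) by their distance from the nearest gene start (x axis, bp, negative upstream). The fullest bin, from 100 to 50 bp upstream, holds 644 summits, and the counts fall off steeply after the start.

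The other NuRD subunits were listed at most MTA2 regions, but in different mixtures. HDAC2, a deacetylase of the complex, overlapped 73.4% of MTA2 peaks by at least 1 bp, RBBP4 overlapped 54.1% and CHD4 overlapped 52.6%. All 3 were present at 4961 peaks (36.9%) and none of them at 2106 (15.6%). HDAC2 without the other 2 was the second most frequent combination, at 2669 peaks (19.8%), and HDAC2 with RBBP4 but without CHD4 was present at 1265 (9.40%). Only 622 MTA2 peaks (4.62%) overlapped none of the 8 other lists.

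The mixture differed between peaks near and away from gene ends. CHD4 overlapped 29.9% of MTA2 peaks near gene ends (interval 28.5 to 31.4%) and 61.6% of those away from them (60.7 to 62.6%). HDAC2 overlapped 76.6% near gene ends and 72.2% away from them. RBBP4 overlapped 47.5% near gene ends and 56.7% away from them. All 3 subunits were listed at 23.7% of the peaks near gene ends and at 42.1% of the distal peaks. Of the peaks with HDAC2 and RBBP4 but no CHD4, 59.4% lay near gene ends, whereas 5.55% of those with CHD4 and RBBP4 but no HDAC2 did. The difference in CHD4 between peaks near and away from gene ends is larger than the counting error.

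The histone marks differed between MTA2 regions near gene ends and elsewhere. H3K4me3 overlapped 88.9% of MTA2 peaks near gene ends and 14.2% of those away from them. H3K4me1 overlapped 4.63% near gene ends and 42.2% away from them. H3K27ac overlapped 67.1% near gene ends and 44.98% away from them. With the MTA2 summit required to lie inside the mark's peak, H3K4me3 was at 68.2% near gene ends and 9.30% away from them, H3K4me1 at 1.05% near and 13.9% away, and H3K27ac at 35.7% near and 27.3% away. H3K27me3 overlapped 17 of 13462 MTA2 peaks (0.126%, interval 0.0789 to 0.202%). That list covers only 2.38 Mb, beside 18.5 Mb for H3K27ac, so this low share does not show that MTA2 avoids the mark. None of the 4 marks was listed at 23.1% of all MTA2 peaks, and this share was 5.39% near gene ends.

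FLI1 peaks met MTA2 mostly away from gene ends. FLI1 overlapped 1200 MTA2 peaks (8.91%), of which 70 were near gene ends (1.83% of 3819) and 1130 away from them (11.7% of 9643). Distal MTA2 peaks with FLI1 had a median fold enrichment of 8.22 (interval 8.01 to 8.42), and those without FLI1 had 6.57 (6.52 to 6.63). FLI1 was listed at 20.5% of distal MTA2 peaks with all 3 other subunits and at 4.20% of those with none of them. The median width of distal peaks was 656 bp with FLI1 and 320 bp without it. Wider peaks are higher and meet other lists more easily, and the part of width in these contrasts was not tested.

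MTA2 peaks with all 3 other subunits were higher than those with none away from gene ends, and lower near gene ends. Away from gene ends the median fold enrichment was 7.10 with all 3 other subunits and 6.63 with none. Near gene ends it was 6.22 with all 3 and 6.87 with none. The median widths with all 3 and with none were 448 and 250 bp away from gene ends, and 418.5 and 282 bp near them. By −log10 p the peaks with all 3 were the higher in both places, with medians of 22.7 with all 3 and 14.9 with none away from gene ends, and of 19.7 with all 3 and 18.5 with none near them. Across overlapping distal peaks the heights of MTA2 and the partner had a Spearman rho of 0.311 for CHD4 (5943 pairs), 0.302 for HDAC2 (6958 pairs) and 0.345 for RBBP4 (5471 pairs). Near gene ends rho was 0.19 for CHD4 (1142 pairs), 0.0775 for HDAC2 (2924 pairs), 0.136 for RBBP4 (1813 pairs) and 0.0568 for H3K4me3 (3396 pairs). The pairs share the local background of a region, so these values are descriptions.

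Most of the highest MTA2 peaks lay near gene ends, and few of these overlapped CHD4. The share of peaks within 1 kb of a gene end was 32.9% at a fold enrichment under 5, 27.8% between 5 and 7.5, 24.7% between 7.5 and 10, 24.5% between 10 and 12, 34% between 12 and 15, 54.9% between 15 and 20, and 79.4% (27 of 34, interval 63.2 to 89.7%) at 20 or more. These bands were chosen after the values were seen. All 34 peaks at 20 or more overlapped H3K4me3, 22 overlapped HDAC2, 11 overlapped RBBP4, 3 overlapped CHD4 and 0 overlapped FLI1. The 7 of them away from gene ends also all carried H3K4me3. None of CHD4, HDAC2 or RBBP4 was listed at 12 of the 34 (35.3%), beside 15.6% of all MTA2 peaks. Any part of antibody specificity or local background in these highest peaks was not tested.

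Near gene ends CHD4 overlapped 35.9% of MTA2 peaks under a fold enrichment of 5, 29.8% between 5 and 7.5, 29.0% between 7.5 and 10, 28.1% between 10 and 12, 25.5% between 12 and 15, 10.1% between 15 and 20, and 3.70% at 20 or more. Away from gene ends the same bands up to 20 gave 64.7, 56.7, 62.1, 76.9, 83.5 and 86.3%, and 2 of 7 peaks (28.6%) at 20 or more. FLI1 in the same distal bands was listed at 5.60, 7.93, 14.9, 26.3, 39.1 and 46.6%, and at 0 of 7 peaks at 20 or more. The median width of the distal peaks in these bands was 295, 302, 379.5, 505, 599 and 732 bp, and wider peaks meet other lists more easily. Counting only peaks whose summit base lay inside the partner's peak gave 60, 51.9, 58.3, 73.7, 80.1 and 80.8% for CHD4 and 3.71, 5.21, 10.998, 19.3, 28.6 and 31.5% for FLI1. By that count 0 of the 27 peaks near gene ends at 20 or more had CHD4, 8 (29.6%) had HDAC2 and 9 (33.3%) had RBBP4.

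**Figure D2:**
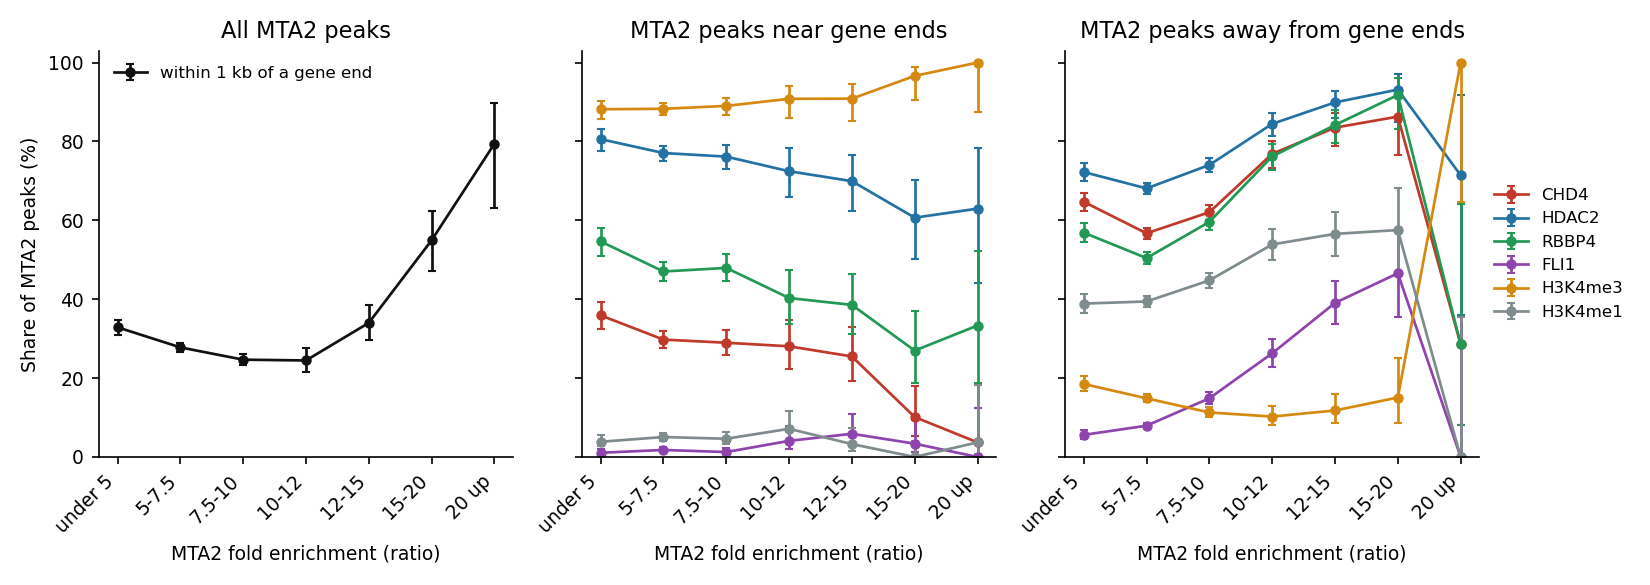
Share of MTA2 peaks (y axis, %) by MTA2 fold enrichment (x axis, bands of the authors' ratio), with 95% Wilson intervals over peaks. Left, share within 1 kb of a gene end, with 79.4% in the highest band; middle and right, share overlapping each other list near and away from gene ends, where CHD4 reaches 3.70% in the highest band near gene ends and 86.3% in the band of 15 to 20 away from them.

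Few of the highest peaks of the other subunit lists were near gene ends. Among the 100 highest peaks of each list, 70 lay within 1 kb of a gene end for MTA2, 2 for CHD4, 6 for HDAC2 and 1 for RBBP4. Ranked by −log10 p, 81 of the 100 highest MTA2 peaks lay near a gene end, 96 overlapped H3K4me3 and 15 overlapped CHD4. Over quintiles of each list, in order of rising fold enrichment, the gene-end share was 32.7, 29.5, 26.7, 24.4 and 28.6% for MTA2, and 32.1, 21.1, 13.7, 9.33 and 4.78% for CHD4. For HDAC2 the highest quintile stood at 21.0% and the lowest at 55.2%, and for RBBP4 the highest stood at 7.91% and the lowest at 57.4%. With quintiles by −log10 p the contrasts were smaller, with 9.93% in the highest and 19.3% in the lowest for CHD4, 34.04% in the highest and 38.4% in the lowest for HDAC2, and 17.9% in the highest and 42.2% in the lowest for RBBP4. For MTA2 the highest by −log10 p stood at 33.8% and the lowest at 28.9%. With 1 library a list, no test of a difference between the lists was possible.

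The 10 highest peaks near gene ends were at EOLA2, DNAJC5, NAF1, UBB, UBE2O, UPF1, WDR45B, GNB1, RAB6A and RPL14, and all 10 overlapped H3K4me3. EOLA2, at chrX:149938230-149938852, had a fold enrichment of 35.7 and none of CHD4, HDAC2 or RBBP4. EOLA2 has a close paralog, EOLA1, so reads may be shared between the copies and its value is uncertain. DNAJC5, a synaptic vesicle cochaperone, had 28.9 at chr20:63894857-63895327, also with none of the other subunits. NAF1, an assembly factor of small nucleolar ribonucleoproteins, had 26.9 with none of them. UPF1, the helicase of nonsense-mediated decay, had 24.7, and RPL14, a large ribosomal subunit protein, had 23.7, again with no other subunit. In the whole group of 10, none overlapped CHD4 or FLI1, 5 overlapped HDAC2 and 2 of these RBBP4.

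UBB (24.8) and WDR45B (24.4), an autophagy protein gene, had HDAC2 and RBBP4. UBE2O (24.7), a ubiquitin-conjugating enzyme, GNB1 (24.4), a G protein beta subunit, and RAB6A (24.4), a small GTPase of the Golgi, had HDAC2 only. In the HDAC2 list, the fold enrichment at these 5 genes was 4.50 at UBB, 4.29 at UBE2O, 3.95 at WDR45B, 4.20 at GNB1 and 3.16 at RAB6A. All 5 were below 5.08, the median over the whole HDAC2 list. Low HDAC2 peaks lay near gene ends more often than high ones, with 55.2% of the lowest quintile and 21.0% of the highest.

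The 10 highest peaks away from gene ends were of more than a single kind. TXNL4A, a spliceosome protein gene, carried a peak of 25.6 over a start in the table, 17.3 kb from the nearest annotated gene end, which belonged to HSBP1L1. NPEPPS, an aminopeptidase gene (23.8), NFKBID, an IκB family gene (20.3), and CTDP1, a phosphatase of RNA polymerase II (19.6), likewise had their peaks over a start inside the annotated gene. The AP-1 genes FOS and FOSB had peaks of 25.1, at 11.8 kb from the FOS end, and of 21.2, at 1.02 kb from the FOSB end. CCDC7 (21.7) and LOC124900193 (21.8) completed the peaks with H3K4me3.

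KCNC2, a potassium channel gene, was nearest to a peak of 19.99 with H3K4me1 and without H3K4me3. Its distance was 59.0 kb. ERRFI1, an inhibitor of the EGF receptor, was nearest to a peak of 19.3 at chr1:8047571-8048450, 21.3 kb away, which alone among the 10 overlapped FLI1. There CHD4, HDAC2 and RBBP4 were all listed, at 7.59, 7.21 and 6.94.

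The widest peaks overlapped all subunits and FLI1, though a wide peak meets other lists more easily. The 5 widest were 2810, 2403, 2321, 2297 and 2201 bp long and all overlapped CHD4, HDAC2, RBBP4, FLI1, H3K27ac and H3K4me1. The widest, at chr20:4482611-4485420, had a fold enrichment of 11.7 and lay 201 kb from PRNP, the prion protein gene. The peak of 2403 bp was inside HOOK1, at 27.8 kb from its end and with a fold enrichment of 12.9. The peak of 2321 bp lay 0.95 kb inside an end of KLF15, a core factor of Ewing sarcoma, at chr3:126289075-126291395 with 11.01. The 2 others were 95.8 kb from IKZF2 (5.99) and 88.0 kb from SLC35B3 (9.72).

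Strong promoter peaks of MTA2 held the letters CGCACG more often than weak ones. Promoter windows ran from 250 bases before to 50 after each start. An MTA2 peak that overlapped windows was given only the window whose start was nearest its summit. Each window was kept once, which gave 2930 of 22078 windows. Shares over all windows, or over windows without MTA2, count every window without this choice. All strings of 6 letters were counted on both strands in windows on the odd-numbered autosomes. The letters with the largest excess in the highest quintile of MTA2 windows by fold enrichment were CGCACG, at 48.6% of 313 windows in that quintile and 24.9% of 1376 in the rest. They were then counted on the even-numbered autosomes and X, which had no part in the choice. The search was chosen after the peaks were seen.

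On those held-out chromosomes CGCACG was in 26.2, 25.8, 24.2, 30.1 and 44.0% of MTA2 windows from the lowest to the highest quintile. The highest quintile held 120 of 273 windows (interval 38.2 to 49.9%), and the lowest 55 of 210 (20.7 to 32.5%). At a fold enrichment of 15 or more, 32 of 51 windows had the letters (62.7%, interval 49.03 to 74.7%). They were in 14.4% of all 9804 windows on the same chromosomes, and in 16.6% of 3753 windows with H3K4me3 and no MTA2 peak.

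In the other lists the highest and lowest quintiles differed by less on the same chromosomes. The letters were chosen in MTA2 windows, and no letters were chosen for the other lists. A smaller difference there is therefore favoured by the choice and does not show a trait particular to MTA2. The highest and lowest quintiles had the letters in 14.5 and 22.6% of windows for CHD4, 21.8 and 25.1% for HDAC2, and 22.2 and 18.6% for RBBP4. For the marks the same pairs were 27.3 and 17.9% for H3K27ac, and 21.4 and 18.8% for H3K4me3. When the choice was made on the even-numbered autosomes and X instead, the first string was GCACGC, which shares 5 letters in a row with CGCACG. It was in 46.6% of the highest and 24.5% of the lowest quintile of MTA2 windows on the odd-numbered autosomes.

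The nearest match also lay closer to the summit under strong peaks. A window with more matches can have a shorter distance to the nearest, and the number of matches was not held fixed. Where window and summit coincided, the median distance from the MTA2 summit to the nearest CGCACG was 54.5, 44.5, 35.5, 44.5 and 17.5 bp from the lowest to the highest quintile on the held-out chromosomes. Within 25 bp of the summit were 58.6% of 116 matched windows in the highest quintile and 19.0% of 42 in the lowest. The GC box letters CCGCCC, counted the same way, had medians of 25.5, 33.5, 33.5, 33.5 and 43.5 bp.

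**Figure D3:**
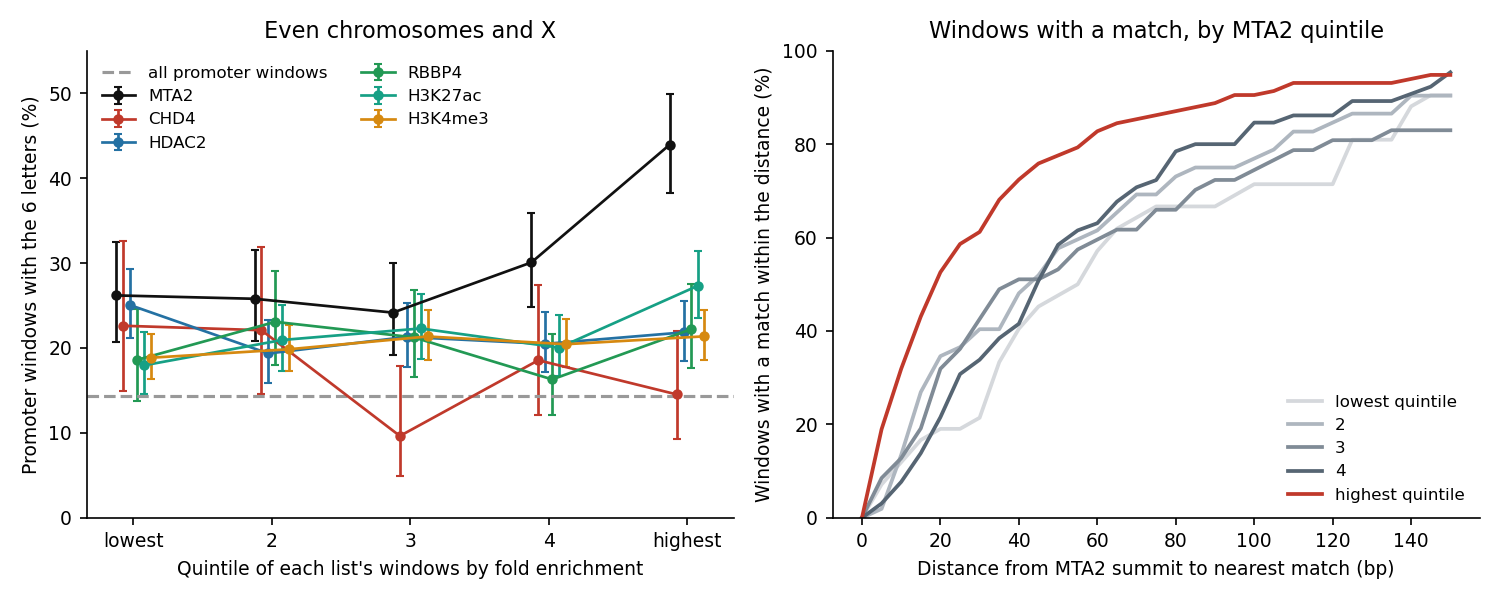
Left, share of promoter windows with the 6 letters (y axis, %) by quintile of each list in order of fold enrichment (x axis), on even-numbered autosomes and X, with 95% Wilson intervals; MTA2 reaches 44.0% in its highest quintile. Right, cumulative share of matched windows (y axis, %) by distance from the MTA2 summit (x axis, bp), where the highest quintile has 58.6% within 25 bp.

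The density of CG pairs moved with the same quintiles. The mean number of CG pairs in a window on the held-out chromosomes was 34.4 ± 10.7 (SD, n = 273 windows) in the highest quintile and 29.8 ± 10.3 (SD, n = 210 windows) in the lowest. The mean GC content was 69.0% in the highest and 67.1% in the lowest. Among windows with 35 or more CG pairs, the letters were in 57.1% of the highest quintile (interval 48.9 to 65.0%) and 35.6% of the other windows (31.0 to 40.4%). With 25 to 34 pairs the share was 37.6% in the highest quintile (28.5 to 47.8%) and 26.7% in the others (22.2 to 31.9%). With 24 or fewer it was 12.5% in the highest (5.46 to 26.1%) and 12.1% in the others (8.61 to 16.7%). Beyond these classes, the part of CG density in the result was not tested.

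Other letters searched on both strands of the held-out windows behaved in varied ways. CCGCCC was in 78.6, 85.7, 82.5, 80.8 and 80.6% from the lowest to the highest quintile, against 56.0% of all windows. TGACGT, part of the cyclic AMP response element, was in 9.05, 10.3, 15.8, 12.4 and 23.4%, against 9.14% of all windows. GCGCGC, which can overlap CGCACG by up to 3 letters, was in 41.4, 45.6, 42.5, 49.2 and 55.7%, against 24.4% of all windows. The CCAAT box (CCAAT) was in 32.2% of the highest and 36.2% of the lowest quintile, against 34.7% of all windows. The ETS letters CCGGAA were in 27.1% of the highest and 31.0% of the lowest, against 20.8% of all windows. The E-box letters CACGTG were in 12.1% of the highest and 10.5% of the lowest, against 8.57% of all windows. A match describes letters in a window and does not show that a factor was bound.

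Of the 20037 protein-coding genes, 4166 (20.8%) had an MTA2 peak within 1 kb of an end, with a median fold enrichment of 6.57 for the highest such peak. Within 5 kb of an end the share was 27.8%, and within 100 kb of the gene it was 70.0%. In what follows each of 16 gene lists is given by its count at 1 kb, to be read against 20.8%. The lists were written from literature and textbook knowledge with earlier results of these data known.

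Genes activated by the fusion often had an MTA2 peak at an end. Of 36 genes reported as activated by EWSR1::FLI1, 17 (47.2%, interval 32.0 to 63.0%) had a peak, with a median fold enrichment of 6.70. XG, a cell surface antigen gene, led with 14.2, where FLI1 and all 3 other subunits were also listed. VRK1, a kinase, had 12.6 with FLI1 and none of the other subunits. FCGRT, the neonatal Fc receptor, had 11.6 with FLI1 and all 3 subunits, and EZH2 had 8.94. ABHD6 and AURKB had no peak within 5 kb of an end.

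Of 24 genes reported as repressed by the fusion, 8 (33.3%) had a peak, with a median of 6.96. The interval of this share, 18.0 to 53.3%, includes the 20.8% of all genes. They included IL6, a cytokine, at 10.96 with all 3 other subunits, JUN, an AP-1 subunit, at 8.04 with none, TNC, an extracellular matrix protein, at 7.89 with all 3, and FOXO1, a transcription factor, at 6.96 with HDAC2. CALD1 and CCN2 had none within 5 kb. Among 12 Ewing core factors 6 (50%) had a peak, with a median of 6.38. KLF15 had 11.01, NR0B1, a nuclear receptor induced by the fusion, had 7.78, GLI1, a Hedgehog effector, had 6.70, and MEIS1, a homeobox factor, had 6.07. EWSR1 and FLI1 had no peak within 5 kb of an end.

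Among the 15 NuRD subunit genes, 5 (33.3%) had an MTA2 peak within 1 kb of an end, with a median of 6.36. MBD3, the methyl-CpG binding domain subunit, had 9.88, CHD5, a neuronal remodeller, had 6.56, GATAD2B, a bridging subunit, had 6.36, HDAC1 had 5.88 and MBD2 had 5.82. CHD4, HDAC2, RBBP4, MTA1, MTA3, MTA2, RBBP7, CHD3, GATAD2A and CDK2AP1 had none at that distance. CHD4, MTA1 and MTA2 each had 1 peak and CHD3 had 4 within 5 kb of an end. Of 12 PRC2 subunit genes 7 (58.3%) had a peak, with a median of 7.43. They included MTF2, an accessory subunit, at 11.3, the catalytic EZH2 at 8.94, PHF1 at 7.73 and EED at 7.43, while AEBP2 and EZH1 had none.

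DNA damage response genes had a peak in 15 of 28 (53.6%), with a median of 6.02. NBN of the MRE11 complex had 10.8, ATR, the replication stress kinase, 8.98, and XRCC6, the Ku70 protein, 8.39. BRCA1 had no peak within 5 kb of an end, and CDKN1A, the p21 gene, had none within 1 kb and 2 within 5 kb. Of 28 cell cycle genes 9 (32.1%) had a peak, with a median of 6.74, among them MCM2 of the replicative helicase at 9.38, RB1 at 8.43, CDT1 at 7.49 and PCNA at 7.33. AURKA and AURKB had none.

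Ribosomal protein genes had some of the highest peaks. Of 76 genes 21 (27.6%) had a peak, with a median of 7.23 and an upper quartile of 11.3, where the upper quartile over all genes with a peak was 8.30. RPL14 had 23.7, RPL3 15.0, RPS9 14.2 and RPL9 14.1, and RPL10 and RPL10A had none. Of 20 housekeeping genes 6 (30%) had a peak, with a median of 5.49. PGK1, a glycolytic kinase, had 10.7, YWHAZ 5.82, TUBB 5.76 and ALDOA 5.22, while B2M and GAPDH had none within 1 kb.

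HOX genes, which pattern the body axis, often had a peak, but low ones. Of 39 genes 18 (46.2%) had a peak within 1 kb of an end and 31 (79.5%) within 5 kb, with a median of 5.90. Counting only peaks with a −log10 p of at least 15 left 7 of 39 (17.9%), beside 15.2% of all genes. HOXD11 had 9.04, HOXC11 7.96 and HOXB13 7.74, each with all 3 other subunits, and HOXA7 had 6.75 with HDAC2 and RBBP4. HOXA10 and HOXA11 had none within 5 kb. HOX genes lie in dense clusters, so 1 peak can count for more than 1 gene.

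The shares of neural factor and axon guidance genes with an MTA2 peak at an end were below 20.8%, but both intervals include that value. Of 28 neural factors 2 (7.14%, interval 1.98 to 22.6%) had a peak, ISL1 at 6.65 and SOX11 at 6.27, and ELAVL3 had none. Of 38 axon guidance genes 5 (13.2%, interval 5.75 to 27.3%) had a peak. In contrast, 18 (47.4%) had at least 1 peak overlapping the gene, where 26.5% of all genes did. A longer gene has more room for a peak, and gene length was not taken into account in these 2 shares. PLXND1, a semaphorin receptor, had 9.40 at an end and 4 peaks overlapping the gene, UNC5B, a netrin receptor, 8.29 and 5 peaks, UNC5A 6.29 and 3 peaks, and PLXNA1 4.45 and 1 peak. DCC had none, and EFNA5 had none at an end and 6 peaks overlapping the gene.

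None of 14 muscle genes (interval up to 21.5%) and none of 14 epithelial genes had a peak within 1 kb of an end. ACTA1, ACTN2, CDH1 and CLDN3 are among them. The intervals of both lists reach 21.5% and so include the 20.8% of all genes. Of 14 blood genes 1 had a peak, CD79A at 6.85 with FLI1. Of 20 mesenchymal and matrix genes 5 (25%) had a peak, with a median of 6.69. COL4A1 had 7.66, SNAI1 6.93, COL5A1 6.69 and FN1 6.64, and COL1A1 and COL1A2 had none.

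**Figure D4:**
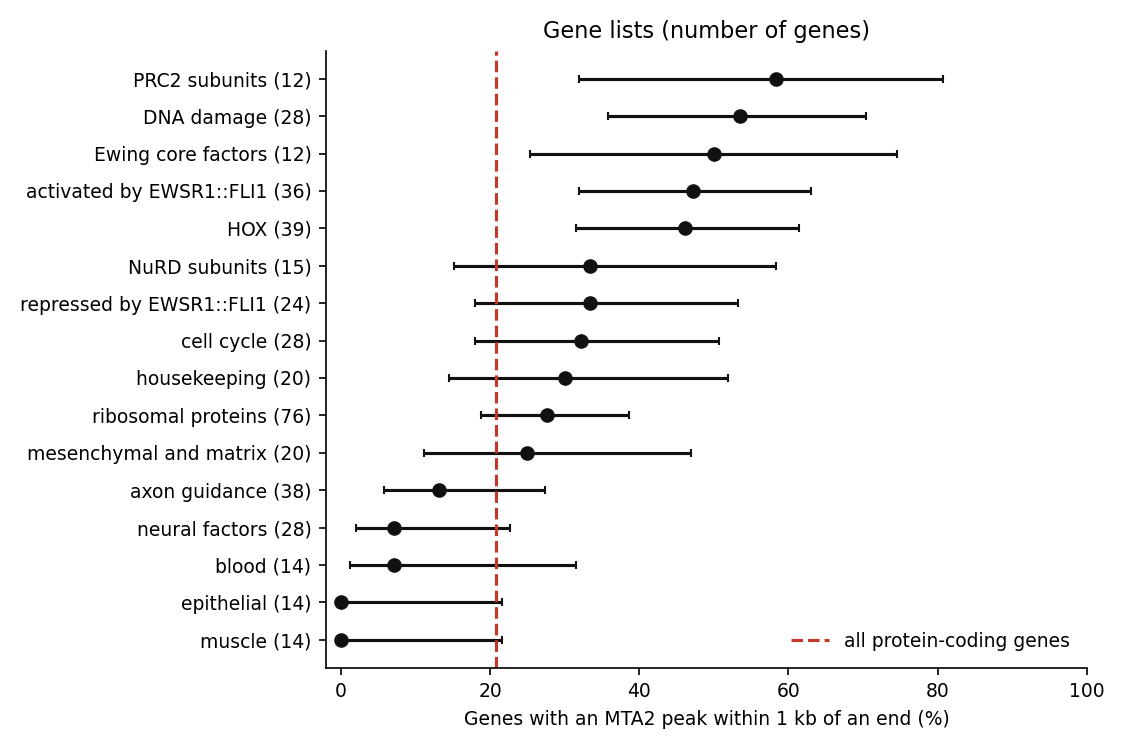
Share of genes in each list with an MTA2 peak within 1 kb of an end (x axis, %), with 95% Wilson intervals over genes, and the number of genes in brackets. The dashed line is the share over all protein-coding genes, 20.8%; PRC2 subunits stand at 58.3% and the muscle and epithelial lists at 0%.

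A few genes were the nearest gene to many MTA2 peaks, though often not at a short distance. As nearest gene, 6923 genes had at least 1 peak and 83 had 10 or more. MYC, the proto-oncogene, was nearest to 33 peaks, LRATD2 to 32, CITED2 and JARID2 to 22 each, MEIS1 to 20, GSDMC and TBL1XR1 to 19 each, and DIAPH3, HDAC9 and PTPRC to 17 each. Within 100 kb of the gene there were fewer peaks for most of them. MYC had 11, LRATD2 10, CITED2 5, JARID2 13, MEIS1 9, GSDMC 3, TBL1XR1 9, DIAPH3 10, HDAC9 17 and PTPRC 6. The peaks nearest to MYC were low, with a median fold enrichment of 4.06 and a maximum of 5.68, and 28 of 33 overlapped CHD4 and 27 overlapped H3K4me1. Those nearest to LRATD2 had a median of 3.49, and those nearest to GSDMC 4.05. All 17 peaks of HDAC9, a deacetylase gene, overlapped the gene itself and reached 11.5. JARID2, a PRC2 partner, had 11 of its 22 peaks inside, with a maximum of 11.01.

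Neighbouring peaks formed runs. Joining peaks at most 10 kb apart gave 10874 runs, of which 1909 held 2 or more peaks and together 33.4% of all placed peaks. The run with the most peaks had 11 over 37.9 kb beside SAMD11 and NOC2L, with a maximum of 10.4, and 9 of them overlapped HDAC2. HOXC4, HOXC5 and HOXC6 had a run of 9 peaks over 38.0 kb, all 9 with HDAC2 and 2 with H3K4me3. BAHCC1 also had 9 peaks. HES1, a Notch target, had 8 peaks within 11.6 kb, all with HDAC2 and H3K27ac. MECOM, a zinc finger factor, had 7 peaks within 6.38 kb, and SH2B3, an adaptor protein, 7 peaks reaching 15.0. JUNB, an AP-1 subunit, also had 7 peaks.

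The 3 windows of 1 Mb with the most peaks held 33 each. The window chr12:54000000-54999999, with HOXC4, HOXC5, HOXC6, CBX5 and ITGA5, had 6 peaks near gene ends and a median fold enrichment of 6.13. The window chr19:1000000-1999999, with STK11, GPX4, TCF3, MBD3 and other genes, had 20 near gene ends and a median of 6.79. The window chr8:126000000-126999999, around LRATD2, had 2 near gene ends and a median of 3.51.

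Chromosomes differed in number and height of peaks. Peaks per Mb spanned by genes ran from 1.56 on X and 1.86 on chromosome 18 up to 7.89 on chromosome 19 and 7.91 on chromosome 17. Chromosome 19 had the highest share near gene ends, 42.6%, and chromosome 8 the lowest, 20.4%. Median fold enrichment was lowest on chromosome 8, at 5.71 (quartiles 4.35 and 7.71), and highest on X, at 7.92 (6.61 and 9.53). The median −log10 p was 18.5 on chromosome 8 and 17.4 on X. The 2 measures of height thus put these chromosomes in opposite orders.

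**Figure D5:**
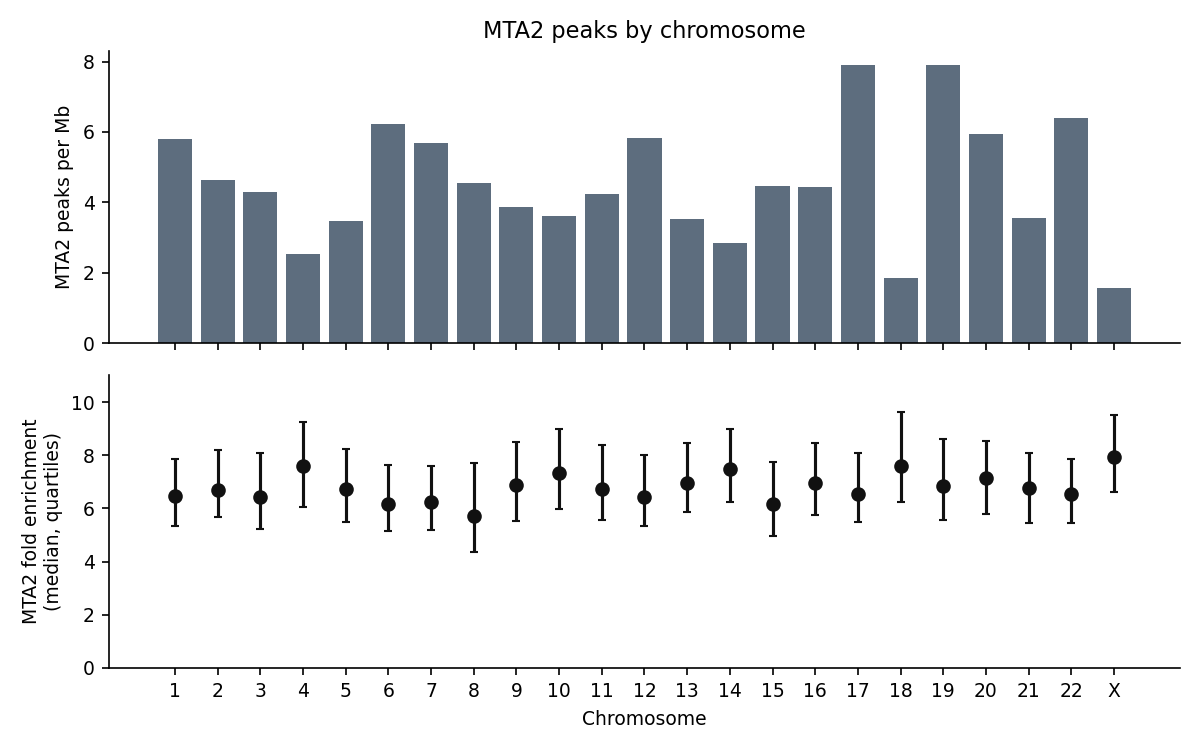
Top, MTA2 peaks per Mb spanned by annotated genes on each chromosome (bars from 0). Bottom, median MTA2 fold enrichment with quartiles (points and whiskers), lowest on chromosome 8 at 5.71 and highest on X at 7.92.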

How the data were processed

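The MTA2 list and 8 other ChIP-seq peak lists from SKNMC cells were used, 1 sample each. The submitters' processing notes name GRCh38 as the build and list the tools bedtools 2.27.1, deepTools 3.2.1, SAMtools 1.9, BWA 0.7.17, FastQC 0.11.7 and Trimmomatic 0.36. The deposited peak names contain MACS2. Its version, the control library and any excluded regions were not given in the sources used here. Per peak, the authors deposited a fold enrichment (a ratio) and a −log10 p and −log10 q. The deposited score and summit offset come from the same caller, and the score and −log10 q were not used. Below the highest MTA2 peak number, 13544, 82 numbers are missing, for a reason the files do not state.

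Positions were converted to 1-based coordinates and matched to 20037 RefSeq protein-coding genes. That table gives no strand, so gene ends count both starts and ends. Starts came from the RefSeq promoter table, which covers 15843 of the genes. The 5 MTA2 peaks on unplaced contigs had no gene. Genes were named by a fixed rule: the nearest genes of the 10 highest peaks near and away from gene ends and of the 5 widest peaks, the 10 genes nearest to the most peaks, up to 4 members with and 2 without a peak of each list, all NuRD subunits, and genes in the 3 fullest windows. EOLA1, genes named only for runs, the 100 highest peaks, fold enrichment bands, TXNL4A, the members singled out within windows and the search for letters were added after values were seen. The members and lists were chosen with earlier results of these data known. All 418 gene list entries matched by symbol. Some list members that the rule names are not reported here. Scripts (Python 3.11.15, pandas 2.3.3, numpy 2.4.6, scipy 1.17.1) were tested on simulated peaks and sequences. The alternatives tried were a −log10 p of at least 15, the 2000 highest peaks, other overlap rules, a 5 kb window, gene starts alone, −log10 p as height, and leaving out chromosome 8.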

Additional observations from a re-analysis of the deposited data

How the results depend on the processing

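No paired analysis was possible because each target had 1 sample. A −log10 p minimum of 15 left 9467 MTA2 peaks, and all 13462 intervals were distinct. The gene-end share of 28.4% became 29.8% among the 2000 highest peaks, 38.3% with a 5 kb window and 25.3% with gene starts alone. Requiring a −log10 p of at least 15 in both lists gave overlaps of 47.1% for CHD4, 71.5% for HDAC2, 39.0% for RBBP4, 7.83% for FLI1 and 29.9% for H3K4me1. Requiring 50% of the MTA2 peak to be covered gave 45.9% for CHD4, 68.3% for HDAC2, 45.2% for RBBP4, 3.16% for FLI1, 34.3% for H3K27ac, 12.3% for H3K4me1, 28.1% for H3K4me3 and 0.0743% for H3K27me3. Requiring the summit to lie inside the other peak gave 47.4, 67.8, 49.6, 6.33, 29.7, 10.3, 26.0 and 0.0594% in the same order. The gene-end share of the highest quintile minus that of the lowest was -4.10 percentage points by fold enrichment, 4.93 by −log10 p and -6.81 with the 5 kb window. The ratio of median height near over away from gene ends was 0.963 by fold enrichment and 1.02 by −log10 p. The ratio with all 3 other subunits over none was 1.04 by fold enrichment, 1.42 by −log10 p and 0.978 among peaks with a −log10 p of at least 15. The cause of these 3 reversals was not tested. The share of genes with a peak at an end was 15.2% with the −log10 p minimum and 27.8% with the 5 kb window. Chromosome 8 held 4.91% of all peaks and 4.20% of the 2000 highest. Of 32 alternatives for the gene lists, 26 stayed within the interval of the list's share. For the letters CGCACG, the highest quintile exceeded the lowest by 17.8 percentage points, by 25.1 with −log10 p as height, and GCACGC by 22.2 with the chromosomes exchanged, both chosen after seeing the data. With unknown depth, a missing peak does not show that a protein was absent, and 1 library for each target leaves the spread between cultures unmeasured.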
